A study of Homo sapiens with 18 samples.

Results

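A set of 31 genes of glycolysis and of the cellular response to low oxygen was followed through WDR5 knockdown in derivatives of a breast cancer line. The genes were set by a list of symbols, drawn up with earlier results of these data known. All 31 were found in the deposited table of 58815 genes. Of these, 20 encode enzymes of glycolysis and of the fate of its product pyruvate, and 11 are induced by hypoxia through other roles. The libraries came from cells of LM2, BrM3 and BoM, which are derivatives of MDA-MB-231 selected in mice for growth in lung, brain and bone, respectively. MDA-MB-231 is an established human triple-negative breast cancer line. The cells of each line carried a doxycycline (DOX)-inducible hairpin, either a control (shCtrl) or shWDR5-1 against WDR5, a scaffold subunit of chromatin-modifying complexes, and all cells had received DOX at 1 μg/mL for 3 days. There were 3 libraries per line and hairpin, 18 in all, and the Methods describe them as biological replicates from different passages. With 1 hairpin against WDR5, an effect of lower WDR5 and an effect particular to that hairpin cannot be told apart, and each derivative is 1 selected population.

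Glycolysis turns glucose into pyruvate in the cytosol. Hexokinase traps glucose in the cell, phosphofructokinase commits it, and the lower steps from aldolase to pyruvate kinase yield ATP. Lactate dehydrogenase then reduces pyruvate to lactate, which cancer cells do even with oxygen present. In hypoxia, the transcription factors HIF1A and EPAS1 escape prolyl hydroxylation and VHL-mediated degradation, pair with ARNT, and induce most genes of glycolysis together with genes for vessel growth, pH control, mitophagy and collagen modification.

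Total counts ranged from 17485841 to 119667013 per library. Levels are given as TMM-scaled CPM, that is counts relative to the scaled library total, and 30 of the 31 genes passed the filter on low counts. ANKRD37, an ankyrin repeat gene, did not pass, with 25 to 255 counts per library. WDR5 itself fell in each line, with log2 fold changes of -2.43 ± 0.14 (SE), -1.97 ± 0.14 and -2.24 ± 0.14 in LM2, BrM3 and BoM. The 6 markers of such triple-negative cells, VIM, CD44, KRT18, KRT8, AXL and CAV1, summed to 4282 to 6037 CPM, 3 leukocyte markers summed to 0.113 to 1.11 CPM, and 5 markers that such cells lack or hold at a low level summed to 47.9 to 90.0 CPM. Of these 5, ERBB2 had group means of 45.7 to 75.7 CPM and EPCAM of 4.61 to 9.83 CPM, while those of CDH1, PGR and ESR1 were at most 0.487, 0.479 and 0.398 CPM. The strand setting of the counts is not given in the sources used here, so genes that overlap on opposite strands are uncertain, among them CA9 with 35.7% and GAPDH with 17.6% of exon bases under a gene on the other strand. GAPDH has 65 named pseudogenes in the annotation, BNIP3 44 and PGAM1 13, so reads shared with near-identical copies make their counts uncertain.

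Levels between genes were compared per kilobase of exon, on a linear scale. In shCtrl LM2 cells the most abundant transcript was GAPDH, the glyceraldehyde phosphate dehydrogenase that is widely used as a reference gene, at 1395 ± 76.4 CPM per kilobase (SD, n = 3). It was followed by the enolase ENO1 at 684 ± 36.2, the pyruvate kinase PKM at 622 ± 44.4, the lactate dehydrogenase LDHA at 448 ± 24.96 and the triose phosphate isomerase TPI1 at 404 ± 26.8 CPM per kilobase. The SDs of ENO1 and PKM overlapped in LM2, and so did those of LDHA and TPI1. GAPDH and ENO1 also led in BrM3, at 1153 ± 66.6 and 503 ± 17.2, and in BoM, at 1274 ± 37.8 and 860.3 ± 42.2 CPM per kilobase. The order of these genes turned on the length used. Per kilobase of the longest transcript, PKM stood above ENO1 in LM2, at 1769 ± 126 against 1401 ± 74.1, and LDHA (1229 ± 38.7) and PKM (1165 ± 76.9) stood above ENO1 (1030.4 ± 35.2) in BrM3, with GAPDH highest in each line. In BoM GAPDH and ENO1 then did not differ beyond their SDs, at 1774 ± 52.6 and 1761 ± 86.4 CPM per kilobase. By exon length, the hypoxia targets were lower than those enzymes, led by ADM, the vasodilator peptide adrenomedullin, at 46.1 ± 7.33 in LM2, 83.7 ± 15.7 in BrM3 and 50.3 ± 8.89 CPM per kilobase in BoM. EGLN3, an oxygen-sensing prolyl hydroxylase, stood at 0.395 ± 0.0266, 0.466 ± 0.048 and 0.602 ± 0.0245 CPM per kilobase in the same order.

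**Figure D1:**
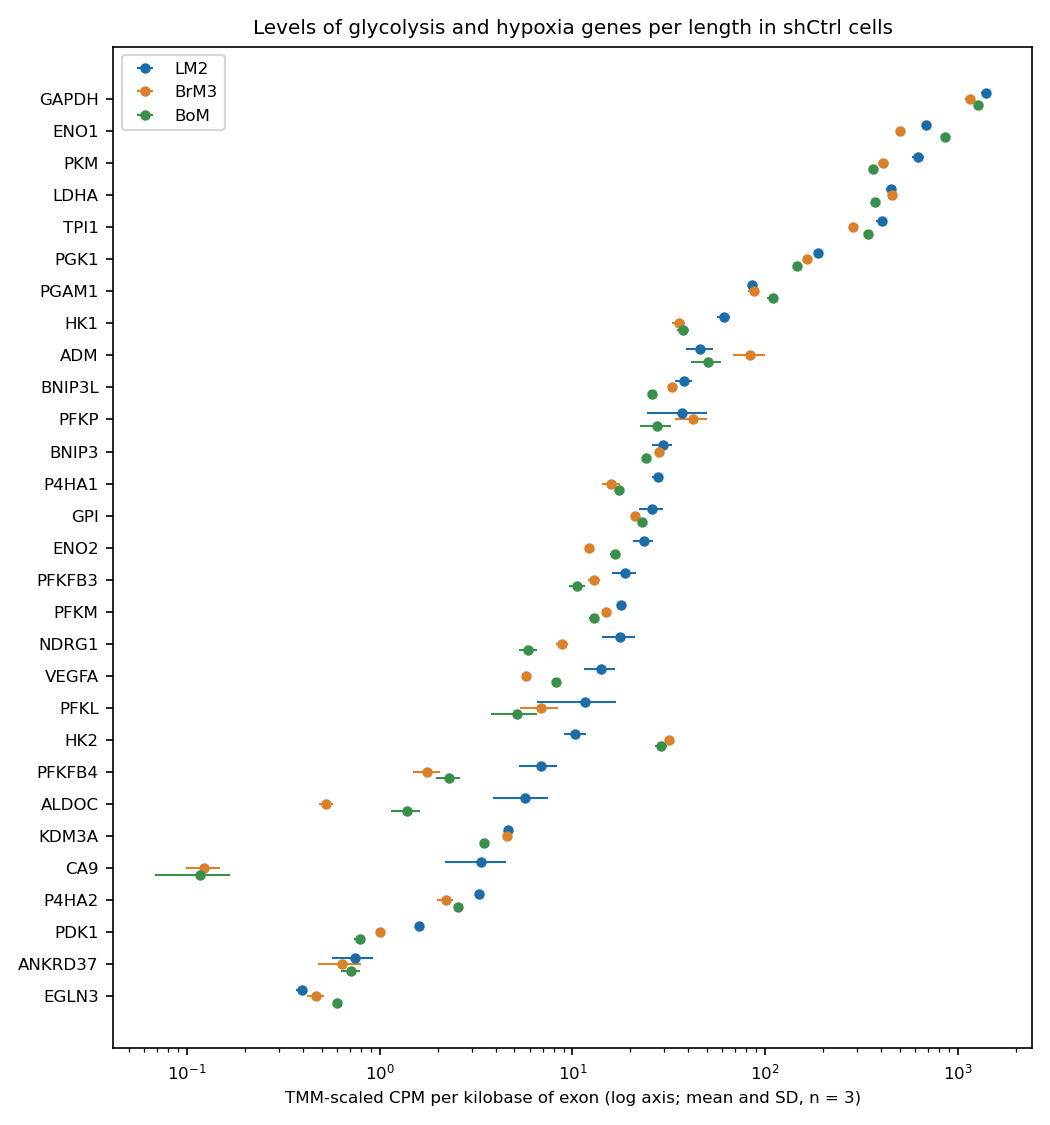
Mean level (points) and SD (bars, n = 3) in shCtrl libraries of LM2, BrM3 and BoM, in CPM per kilobase of exon on a log axis, for 29 genes ordered by LM2. GAPDH leads in all 3 lines, HK2 lies higher in BrM3 and BoM than in LM2, and CA9 lies lower there.

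ALDOA and LDHB are left out of that plot. Of the exon bases of ALDOA, the main aldolase of most cells, 42.8% lie under another annotated gene on the same strand, and for LDHB, the other lactate dehydrogenase subunit, 33.4% do. Their counts were low, at 1.36 to 8.50 CPM for ALDOA and 5.65 to 17.6 CPM for LDHB. The part of the overlap in these values was not tested, so no share of ALDOC against ALDOA or of LDHB against LDHA is given.

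The comparison of shWDR5 with shCtrl asks how these genes responded to WDR5 loss. Averaged over the 3 lines, 17 of 30 genes were called at an adjusted p under 0.05 (edgeR, quasi-likelihood), 11 higher and 6 lower, where 35.4% of the 12081 tested genes were called, 15.6% higher and 19.9% lower. Of the glycolytic enzymes, 8 rose, namely HK2, TPI1, GAPDH, PGK1, PGAM1, ENO1, PKM and LDHA, together with the hypoxia targets ADM, BNIP3 and KDM3A. The isozymes ALDOC, ENO2 and PFKFB4 fell, together with CA9, EGLN3 and P4HA2. The rises were small, between 14.6% for KDM3A and 35.1% for ADM, while ENO2 fell by 14.6% and ALDOC fell by 36.1%. CA9 had few counts outside LM2 and is given with its counts below. EGLN3 passed the filter on low counts through shCtrl libraries alone. The median log2 fold change of the 30 genes was 0.11, against 0.00 over all tested genes. The libraries are bulk RNA, so fewer cells that express a gene and less of its RNA per cell cannot be told apart, and the scaling makes each value relative to the other genes of its library.

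**Figure D2:**
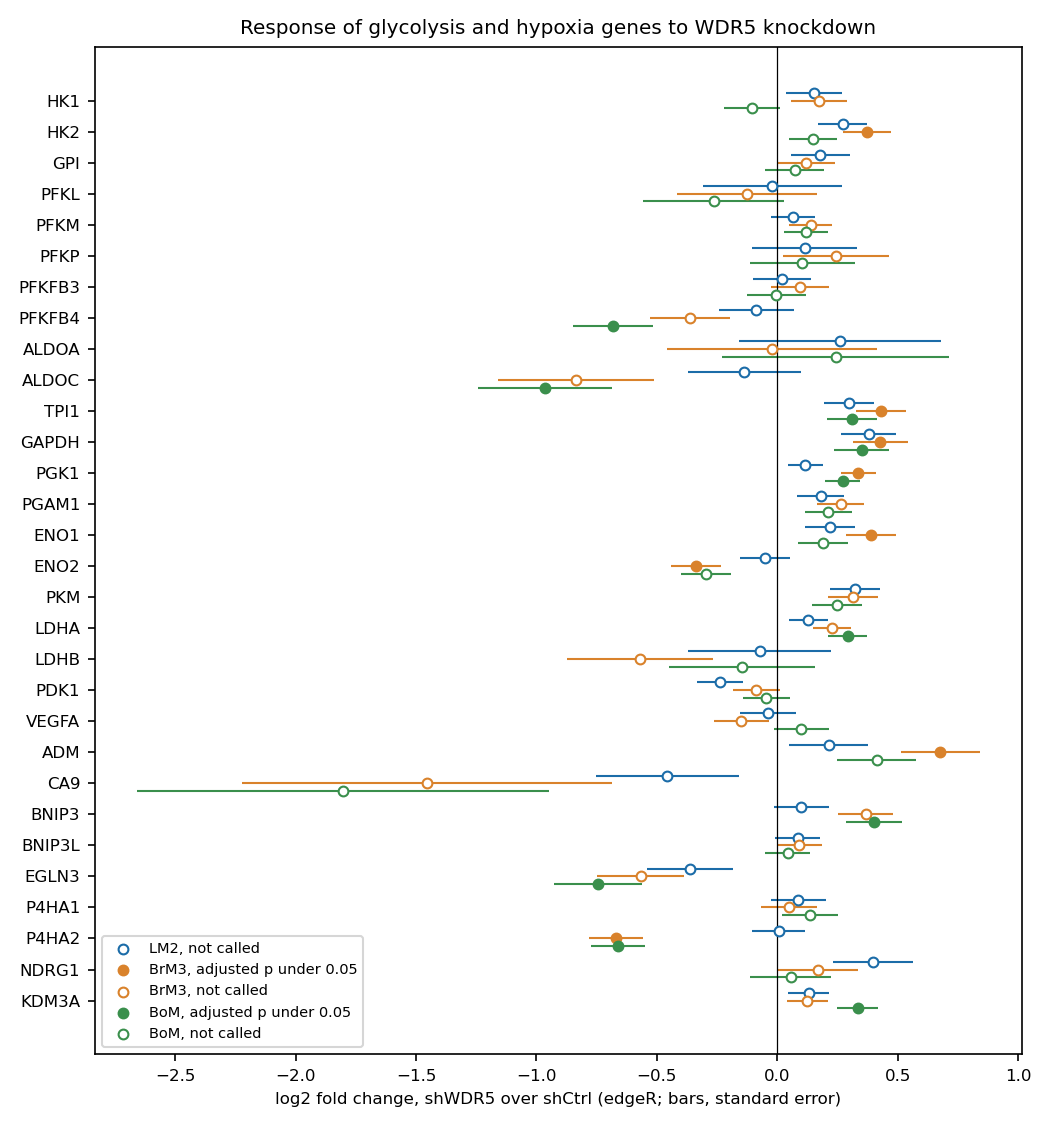
Log2 fold change of shWDR5 over shCtrl (points) with its standard error (bars) for 30 genes in LM2, BrM3 and BoM. Filled points have an adjusted p under 0.05. GAPDH, TPI1, PGK1 and ENO1 lie above 0 in all 3 lines, and P4HA2 lies at -0.67 in BrM3 and -0.66 in BoM but at 0.00 in LM2.

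Within single lines fewer genes passed. In LM2 none of the 30 was called by edgeR, where 6.26% of all tested genes were called, 1.48% higher and 4.78% lower. At an unadjusted p under 0.05 there were 6 of 30, against 20.1% of all tested genes. DESeq2 called 3 of 30 (GAPDH, PKM and TPI1), beside 1142 of the 12081 tested genes. In BrM3 8 of 30 were called, 6 higher and 2 lower, against 10.7% of all tested genes, 2.87% higher and 7.87% lower. In BoM 10 of 30 were called, 6 higher and 4 lower, against 16.1% of all tested genes, 5.41% higher and 10.7% lower. With the replicate number as a block 13 were called, beside 3172 of the 12081 tested genes. TPI1, GAPDH, PGK1 and P4HA2 were the 4 called in BrM3 and in BoM. The calls in a single line rested on few libraries, since the count in BrM3 fell to 2 or 3 without shCtrl replicate 1 or 3 or shWDR5 replicate 2 or 3, and that in BoM to 4, 5 or 6 without shCtrl replicate 2, shWDR5 replicate 2 or shCtrl replicate 1. Over all tested genes, leaving out a library gave 730 to 1559 calls in BrM3 and 1169 to 2321 in BoM.

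Genes whose libraries did not overlap were counted as well, without a test, and the counts did not follow the calls in each line. In LM2 8 genes were higher in every shWDR5 library than in any shCtrl library and 2 were lower, against 10.7% and 14.6% of all tested genes. In BrM3 there were 9 higher and 8 lower, against 15.8% and 19.7%. In BoM there were 8 higher and 6 lower, against 12.8% and 17.3%.

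Hexokinase opens the pathway. HK2, the inducible hexokinase (chr2:74834127-74893359, GENCODE 44 on GRCh38, as for all genes), had 184, 197 and 185 CPM in the BrM3 shCtrl libraries and 243, 243 and 248 CPM with shWDR5. In LM2 its values were 56.5, 70.5 and 57.2 CPM against 74.3, 80.0 and 67.7 CPM, and in BoM 182, 158 and 171 CPM against 207, 189.9 and 169 CPM. The groups were apart in BrM3 and overlapped in LM2 and BoM. HK2 rose by 0.26 ± 0.06 on the log2 scale over the 3 lines (adjusted p = 0.0019). Neither HK1, the constitutive hexokinase, at 0.07 ± 0.07, adjusted p = 0.41, nor the isomerase GPI, at 0.12 ± 0.07, adjusted p = 0.19, was called.

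At the phosphofructokinase step, none of the enzyme's subunit genes was called, with log2 fold changes of -0.14 ± 0.17 for PFKL, 0.11 ± 0.05 for PFKM and 0.15 ± 0.13 for PFKP. PFKFB3 and PFKFB4 make and remove fructose 2,6-bisphosphate, the activator of this step. PFKFB4 (chr3:48517684-48562015) had 13.1, 16.2 and 12.6 CPM in BoM shCtrl and 9.66, 8.6 and 7.85 CPM in BoM shWDR5 libraries. In BrM3 it had 12.7, 9.46 and 10.2 CPM against 8.15, 8.54 and 8.47 CPM. These groups were apart, whereas the LM2 libraries overlapped, with 31.04, 46.04 and 48.1 CPM against 34.0, 41.0 and 43.4 CPM. PFKFB4 fell by 0.38 ± 0.09 over the lines (adjusted p = 0.0049) and by 0.68 ± 0.17 in BoM (adjusted p = 0.01, or 0.061 without BoM shCtrl replicate 2), and PFKFB3 was at 0.04 ± 0.07, adjusted p = 0.72.

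Of the genes from aldolase to phosphoglycerate mutase, 4 rose and ALDOC fell. GAPDH (chr12:6534512-6538374) had 3138, 3491 and 3398 CPM in LM2 shCtrl and 4592, 4235 and 4214 CPM in LM2 shWDR5 libraries. In BrM3 it had 2725, 2936 and 2624 CPM against 3021, 3914 and 4201 CPM, and in BoM 2962, 3143 and 3049 CPM against 3459.7, 4528 and 3688 CPM. In all 3 lines each shWDR5 library lay above each shCtrl library. Its log2 fold change was 0.38 ± 0.11, 0.43 ± 0.11 and 0.35 ± 0.11 in LM2, BrM3 and BoM, and 0.39 ± 0.07, adjusted p = 2.4e-04 on average. The DOX-treated shWDR5 cells thus held 30.6% more of this transcript by CPM.

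TPI1 (chr12:6867119-6870948) had 1013, 1101 and 1157 CPM against 1391, 1286 and 1339 CPM in LM2, for shCtrl against shWDR5. The BrM3 values were 766, 802 and 737 CPM against 874, 1073 and 1156 CPM, and those of BoM 877, 982 and 924 CPM against 1002, 1231 and 1220.1 CPM. No pair of groups overlapped, and TPI1 rose by 0.35 ± 0.06 on average (adjusted p = 2.7e-04). PGK1, the phosphoglycerate kinase that yields the first ATP of the pathway (chrX:77910739-78129295), had 1029, 988 and 1046 CPM against 1105, 1076 and 1139 CPM in LM2. In BrM3 PGK1 had 902, 895 and 892 CPM against 1034, 1144 and 1214 CPM, and in BoM 816, 770.4 and 796 CPM against 906, 983 and 987 CPM. Its groups were apart in each line too, with 0.24 ± 0.04, adjusted p = 2.7e-04 on average. PGAM1, the phosphoglycerate mutase (chr10:97426191-97433444), had 225, 207 and 221 CPM against 244, 234 and 262 CPM in LM2, 210.3, 217 and 236 CPM against 248, 271 and 277 CPM in BrM3 and 261, 278 and 295 CPM against 276, 319 and 370.0 CPM in BoM. Its groups overlapped in BoM and were apart in LM2 and BrM3, and it rose by 0.22 ± 0.06 on average (adjusted p = 0.0061).

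ALDOC, the brain-type aldolase (chr17:28573115-28576948), moved the other way. In BoM it had 3.12, 4.29 and 3.43 CPM with shCtrl and 1.85, 1.51 and 2.19 CPM with shWDR5. In BrM3, where it was scarce, it had 1.33, 1.52 and 1.29 CPM against 0.684, 0.698 and 0.868 CPM. The LM2 libraries overlapped, with 10.0, 15.2 and 19.4 CPM against 9.63, 12.3 and 19.4 CPM. ALDOC fell by 0.65 ± 0.16 on average (adjusted p = 0.0051) and by 0.97 ± 0.28 in BoM (adjusted p = 0.025), and the BrM3 value was -0.84 ± 0.32, adjusted p = 0.11. In BoM the adjusted p of ALDOC was 0.116 without shCtrl replicate 2, 0.059 without shWDR5 replicate 1 and 0.093 without shWDR5 replicate 2.

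The enolases split in the same manner. ENO1, the enolase of most tissues (chr1:8861000-8879190), had 3355, 3710.2 and 3644 CPM against 4385, 4068 and 4003 CPM in LM2. In BrM3 the values were 2599.6, 2726 and 2552 CPM against 2801, 3654 and 3865 CPM, and in BoM 4416, 4734 and 4312 CPM against 4866, 5694 and 4805 CPM. Every shWDR5 library was above every shCtrl library in each line, and ENO1 rose by 0.27 ± 0.06 on average (adjusted p = 0.0025). ENO2, the neuronal enolase (chr12:6913745-6923698), had 54.5, 52.2 and 50.8 CPM against 35.4, 44.1 and 44.8 CPM in BrM3 and 67.5, 75.6 and 70.2 CPM against 58.2, 62.2 and 53.3 CPM in BoM. Its LM2 libraries overlapped, with 87.0, 106 and 109 CPM against 94.8, 94.7 and 102 CPM. ENO2 fell by 0.23 ± 0.06 on average (adjusted p = 0.0069) and by 0.34 ± 0.10 in BrM3 (adjusted p = 0.047). The BrM3 call was lost without any one of the 6 BrM3 libraries, at an adjusted p of up to 0.14. In BoM its adjusted p was 0.063 and became 0.032 with the replicate number as a block. As a share of ENO1 and ENO2 per kilobase, ENO2 made up 3.06%, 3.35% and 3.51% in LM2 shCtrl and 2.57%, 2.76% and 3.01% in LM2 shWDR5 libraries. The shares were 2.49%, 2.28% and 2.37% against 1.52%, 1.45% and 1.39% in BrM3, and 1.83%, 1.91% and 1.94% against 1.44%, 1.31% and 1.33% in BoM. The share was lower in every shWDR5 library than in any shCtrl library of its line.

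**Figure D3:**
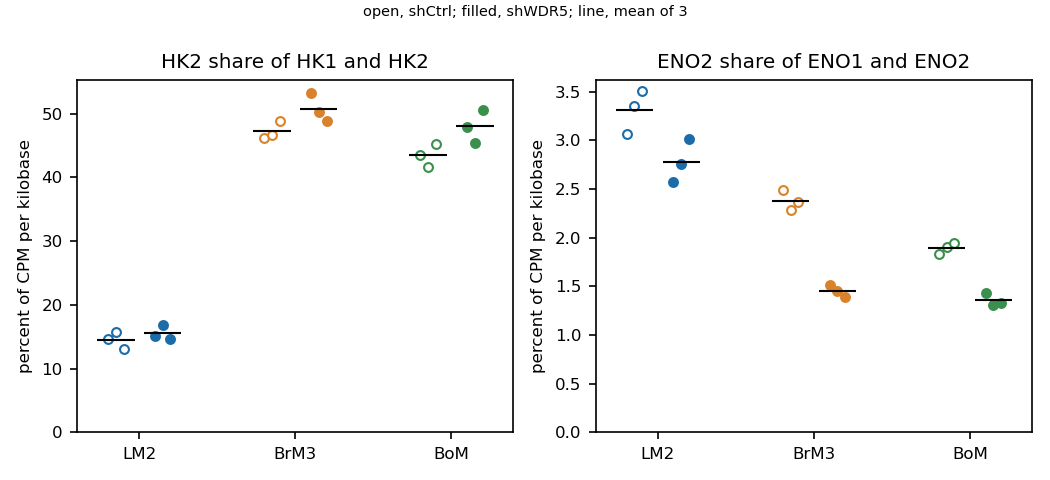
HK2 as a percent of HK1 and HK2, and ENO2 as a percent of ENO1 and ENO2, in CPM per kilobase for each library, with open points for shCtrl, filled points for shWDR5 and lines for means of 3. The HK2 share averages 14.5% in LM2 shCtrl and 47.2% in BrM3 shCtrl, and the ENO2 share lies lower with shWDR5 in each line.

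PKM, which makes pyruvate (chr15:72199029-72231819), had 4945, 5355 and 5706 CPM against 7044, 6262 and 6690.1 CPM in LM2. In BrM3 it had 3488, 3759 and 3298 CPM against 3576, 4626 and 4904 CPM, and in BoM 3166, 3195 and 2972 CPM against 3637, 3969.9 and 3486 CPM. The groups overlapped in BrM3 only, and PKM rose by 0.29 ± 0.06 on average (adjusted p = 0.0011). LDHA (chr11:18394560-18408425) had 2753, 2529.6 and 2816 CPM against 2959, 2874 and 3020.2 CPM in LM2 and 2854, 2692 and 2719 CPM against 3233, 3185 and 3250.4 CPM in BrM3. In BoM, the only line where it was called (0.29 ± 0.08, adjusted p = 0.02), it had 2162, 2238 and 2315 CPM against 2423, 3046 and 2752 CPM. Its groups were apart in each line, with 0.22 ± 0.05, adjusted p = 0.0017 on average. The BoM adjusted p of LDHA was 0.059, 0.063 and 0.101 without shCtrl replicate 1, shCtrl replicate 2 and shWDR5 replicate 2. PDK1, a kinase that inactivates pyruvate dehydrogenase, was not called, at -0.12 ± 0.06, adjusted p = 0.093.

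**Figure D4:**
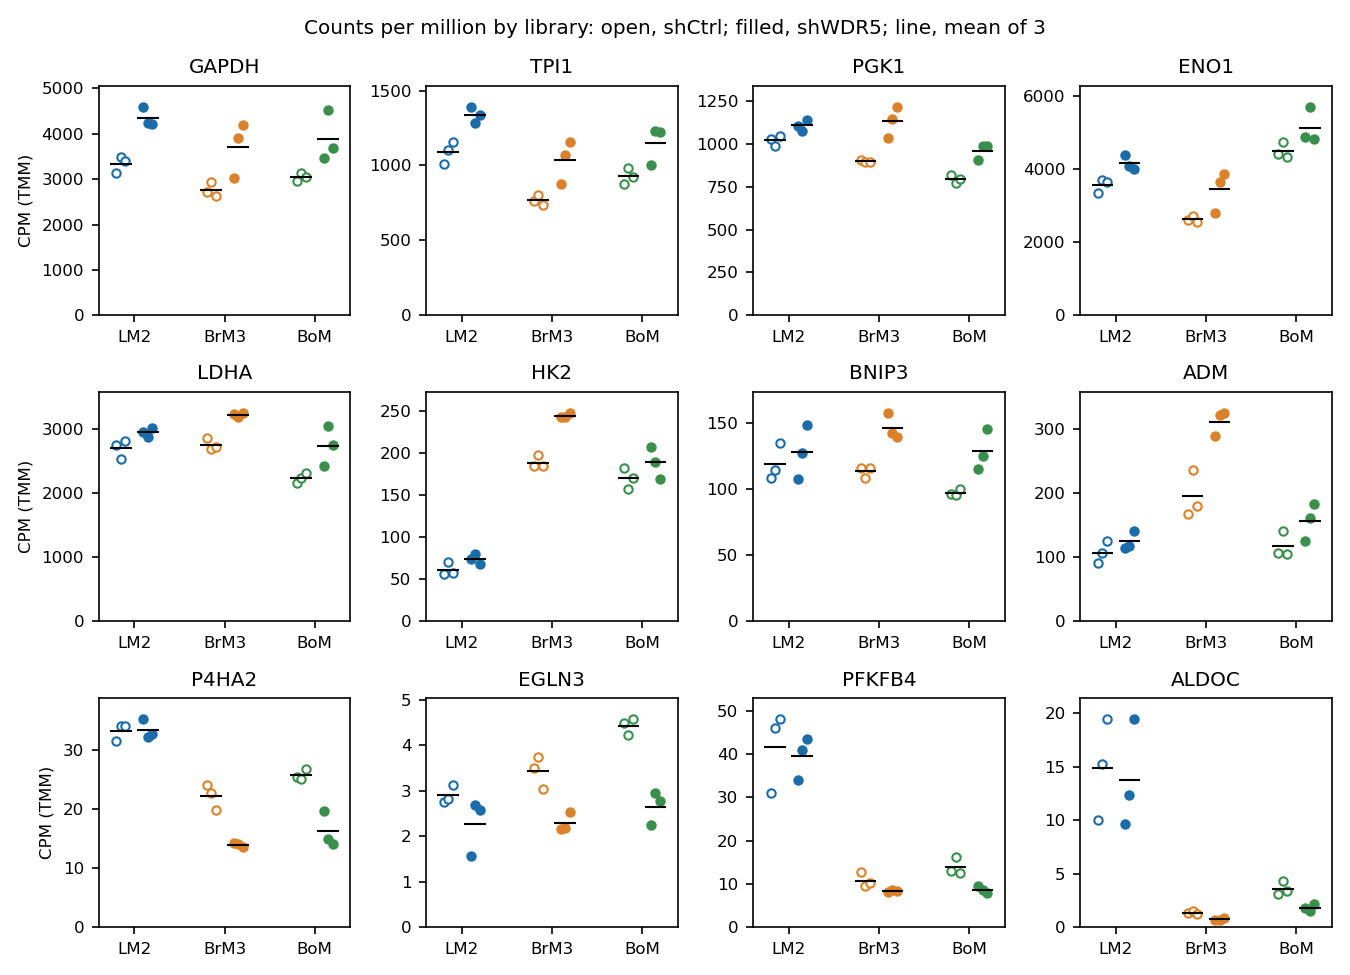
CPM of 12 genes in each of the 18 libraries by line, with open points for shCtrl, filled points for shWDR5 and lines for means of 3. GAPDH, TPI1, PGK1, ENO1 and LDHA lie higher with shWDR5 in each line, and P4HA2 lies lower in BrM3 and BoM.

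Among the hypoxia targets, 3 of the 10 tested rose and 3 fell on average, against 15.6% higher and 19.9% lower over all tested genes. Of the secreted and surface products, ADM (chr11:10305073-10307397) had 168, 236 and 179.8 CPM in BrM3 shCtrl and 288, 320.3 and 324 CPM in BrM3 shWDR5 libraries, which did not overlap. Its values were 90.3, 107 and 124 CPM against 115, 117 and 141 CPM in LM2 and 106, 141 and 104 CPM against 124, 161 and 182 CPM in BoM, both overlapping. ADM rose by 0.68 ± 0.16 in BrM3 (adjusted p = 0.013) and 0.43 ± 0.09 on average (adjusted p = 0.0019). The BrM3 adjusted p of ADM was 0.069, 0.066 and 0.051 without shCtrl replicate 1, shCtrl replicate 3 and shWDR5 replicate 3. In BoM its adjusted p was 0.099, or 0.017 with the replicate block. VEGFA, the main vessel growth factor, was at -0.03 ± 0.07, adjusted p = 0.76. CA9, a carbonic anhydrase of the cell surface (chr9:35673928-35681159), had 3.25, 5.92 and 6.84 CPM against 2.28, 3.88 and 6.08 CPM in LM2, which overlapped. CA9 was near absent from BrM3 and BoM, with 2 to 10 counts in a control library and 0 to 4 in a knockdown library. In CPM these were 0.204, 0.154 and 0.233 against 0.057, 0.0665 and 0.0772 in BrM3 and 0.253, 0.209 and 0.101 against 0.0805, 0 and 0.077 in BoM. By line, its log2 fold change came to -0.46 ± 0.30 (LM2), -1.45 ± 0.77 (BrM3) and -1.80 ± 0.86 (BoM), none of them called, though the BoM value had an adjusted p of 0.045 with the replicate block. Its averaged log2 fold change was -1.24 ± 0.39, adjusted p = 0.022, and without BoM shCtrl replicate 1 its adjusted p was 0.055.

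BNIP3 and BNIP3L mark mitochondria for removal. BNIP3 (chr10:131967684-131981967) had 96.1, 95.7 and 100.05 CPM against 115, 125 and 145 CPM in BoM and 116, 109 and 116 CPM against 158, 143 and 139 CPM in BrM3, with no overlap in either line. In LM2 the libraries overlapped, at 108, 114 and 135 CPM against 108, 127 and 149 CPM. BNIP3 rose by 0.29 ± 0.07 on average (adjusted p = 0.0027), and BNIP3L was at 0.07 ± 0.05, adjusted p = 0.31.

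Hydroxylases that use oxygen went in different directions. P4HA2, a collagen prolyl hydroxylase (chr5:132190147-132295315), had 24.1, 22.8 and 19.9 CPM against 14.3, 14.1 and 13.7 CPM in BrM3 and 25.5, 25.2 and 26.9 CPM against 19.7, 15.04 and 14.2 CPM in BoM. In LM2 it had 31.6, 34.1 and 34.2 CPM against 35.3, 32.2 and 32.8 CPM. The groups were apart in BrM3 and BoM and overlapped in LM2. P4HA2 changed by -0.67 ± 0.11, adjusted p = 0.0012, in BrM3, by -0.66 ± 0.11, adjusted p = 7.5e-04, in BoM, and was at 0.00 ± 0.11, adjusted p = 0.99 in LM2. Its relative P4HA1 was at 0.09 ± 0.07, adjusted p = 0.31 on average.

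EGLN3 (chr14:33924227-34462774), which marks HIF subunits for degradation, had 2.76, 2.83 and 3.13 CPM against 1.56, 2.7 and 2.59 CPM in LM2. In BrM3 it had 3.49, 3.75 and 3.05 CPM against 2.17, 2.19 and 2.53 CPM, and in BoM 4.49, 4.23 and 4.58 CPM against 2.25, 2.95 and 2.77 CPM. Each shWDR5 library was below each shCtrl library of its line, and EGLN3 fell by 0.56 ± 0.10 on average (adjusted p = 5.4e-04). The filter on low counts stood near 3.54 CPM, which EGLN3 passed in shCtrl libraries of BrM3 and BoM alone. A fall with shWDR5 was thus favoured by its being tested, though it was also called with a looser filter and with no filter. KDM3A, a histone H3K9 demethylase (chr2:86440647-86492716), had 47.4, 46.3 and 45.2 CPM against 63.7, 54.7 and 56.6 CPM in BoM, with no overlap. Its LM2 values were 59.7, 62.6 and 63.4 CPM against 62.7, 71.8 and 68.8 CPM, and its BrM3 values 59.0, 63.0 and 61.7 CPM against 73.0, 64.5 and 62.9 CPM, both overlapping. KDM3A rose by 0.20 ± 0.05 on average (adjusted p = 0.005). NDRG1, a stress-induced gene, was at 0.21 ± 0.10, adjusted p = 0.11.

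Whether lines responded differently was tested directly. None of the 30 genes was called by edgeR for any of the 3 differences of response, where at most 0.00828% of all tested genes were called. At an unadjusted p under 0.05 there were 3, 2 and 0 genes for BoM against LM2, BrM3 against LM2 and BoM against BrM3, against 5.17%, 2.91% and 2.89% of all tested genes. DESeq2 called 1, 1 and 0 of the 30, beside 40, 18 and 4 of the 12081 tested genes. The gene of the 30 that DESeq2 called was P4HA2 both times. With edgeR, the log2 fold change of P4HA2 differed from that in LM2 by -0.67 ± 0.16, adjusted p = 0.18, for BoM, and by -0.68 ± 0.16, adjusted p = 0.33, for BrM3. Calls in some lines and not in others therefore do not show that a gene responded differently.

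Of the 6 triple-negative markers, 3 were called higher and 1 lower over the lines, against 15.6% and 19.9% of all tested genes. Their sum was 4480 to 5077 CPM in LM2 shCtrl and 5322 to 6037 CPM in LM2 shWDR5 libraries, and it overlapped in BrM3 and BoM. Of the 5 markers low in such cells, 2 were tested and 1 fell. Some markers of other cell types moved with the knockdown as well. Of 4 fibroblast markers, 3 were tested, and COL1A1 (-1.15 ± 0.17, adjusted p = 8.0e-05) and PDGFRB (-0.87 ± 0.11, adjusted p = 1.1e-05) were lower with shWDR5 over the lines. Their 4-gene sum was 43.0 to 98.2 CPM in LM2 shCtrl and 35.8 to 54.9 CPM in LM2 shWDR5 libraries. It was 9.40 to 11.9 CPM against 3.65 to 5.92 CPM in BrM3 and 12.9 to 18.4 CPM against 6.67 to 7.54 CPM in BoM. By marker, the highest group mean was 64.5 CPM for COL1A1, 9.16 CPM for PDGFRB, 5.40 CPM for COL1A2 and 0.0977 CPM for DCN. Of 3 endothelial markers, PECAM1 alone was tested (0.41 ± 0.12, adjusted p = 0.012), and the sum of the 3 was 1.14 to 5.35 CPM over all libraries. The part of these markers in the results was not tested.

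Levels also differed among the 3 lines without knockdown. Relative to LM2, BoM shCtrl cells differed in 23 of 30 genes, 4 higher and 19 lower, where 51.8% of all tested genes were called, 25.9% higher and 25.8% lower. BrM3 differed from LM2 in 19 of 30, 2 higher and 17 lower, where 47.6% were called, 24.2% higher and 23.4% lower. The median log2 difference of the 30 genes was -0.46 for BoM and -0.39 for BrM3, against -0.01 and 0.01 over all tested genes. These comparisons share the LM2 libraries. Both groups of genes took part, since 11 of 20 glycolytic genes and 8 of 10 hypoxia targets were lower in BoM, and 12 of 20 and 5 of 10 were lower in BrM3. The counts of lower genes in this paragraph include CA9, a hypoxia target that passed the filter on low counts through LM2 alone. By library, 19 genes were lower in every BoM than in any LM2 library and 4 were higher, against 26.9% and 29.3% of all tested genes. For BrM3 there were 19 and 2, against 28.6% and 30.2%.

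**Figure D5:**
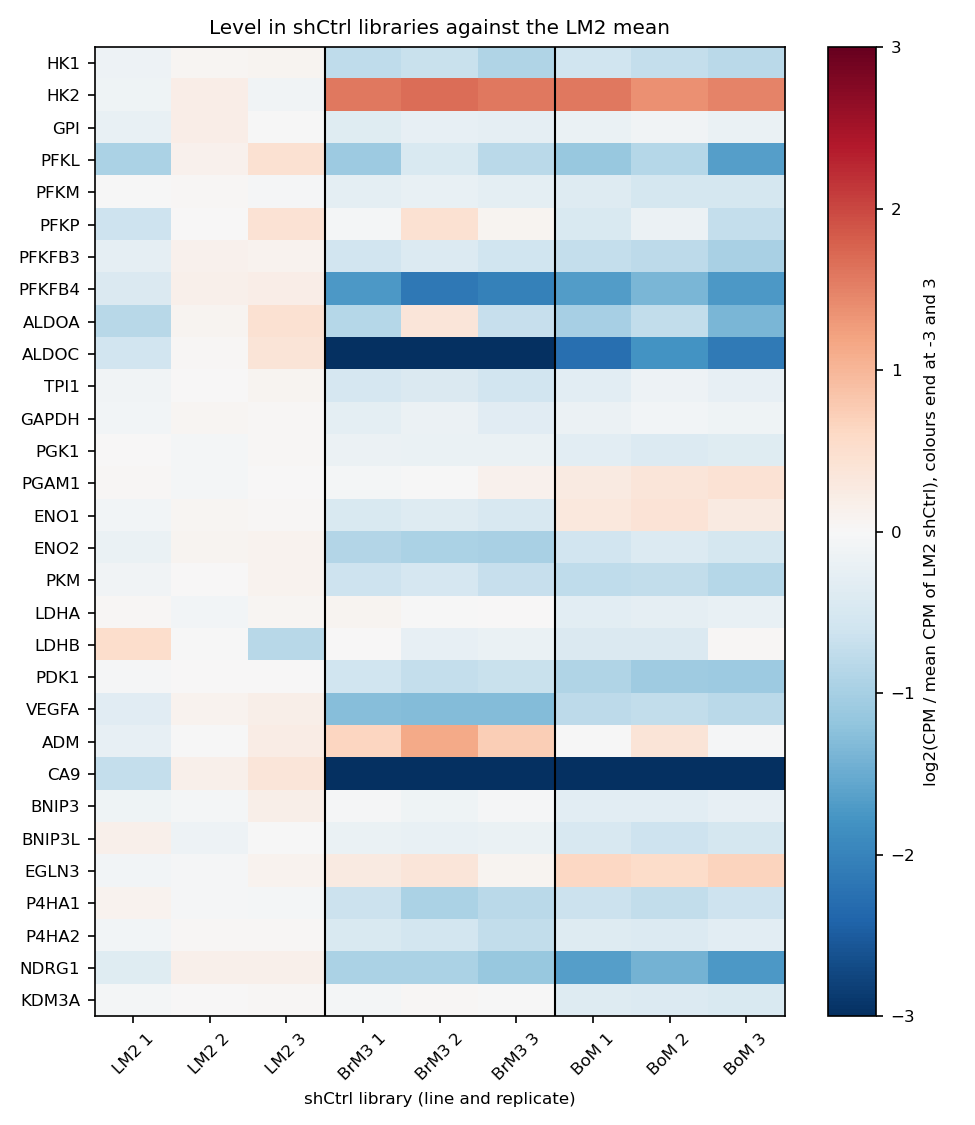
Log2 of CPM over the LM2 shCtrl mean for 30 genes (rows) in the 9 shCtrl libraries (columns), with blue for lower and red for higher and colours ending at -3 and 3. CA9, ALDOC and PFKFB4 are blue throughout BrM3 and BoM, HK2 is red there, and ENO1 is higher only in BoM.

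CA9 passed the filter on low counts through LM2 alone, so that a difference from the other lines was built into its being tested. It had 3.25, 5.92 and 6.84 CPM in LM2, 0.204, 0.154 and 0.233 CPM in BrM3 and 0.253, 0.209 and 0.101 CPM in BoM. The log2 differences from LM2 were -4.76 ± 0.41, adjusted p = 4.3e-08 in BrM3 and -4.72 ± 0.43, adjusted p = 7.7e-08 in BoM, with 2 to 10 counts per library in those lines. ALDOC, with 10.0, 15.2 and 19.4 CPM in LM2, differed from LM2 by -3.44 ± 0.27, adjusted p = 1.5e-08 in BrM3 and -2.05 ± 0.25, adjusted p = 3.2e-06 in BoM. ALDOC lay over the filter in LM2 and in a BoM library but in no BrM3 library, so BrM3 had no part in its being tested. PFKFB4 differed by -1.95 ± 0.16, adjusted p = 3.4e-08, for BrM3, and -1.58 ± 0.16, adjusted p = 4.0e-07, for BoM. No library of BrM3 or BoM reached the lowest LM2 library for these 3 genes. LM2 shCtrl replicate 1 had the lowest value of its group for CA9, ALDOC and PFKFB4, and also for NDRG1 and VEGFA.

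NDRG1 had 165, 237 and 237 CPM in LM2, 110.4, 110.5 and 97.0 CPM in BrM3 and 68.1, 79.6 and 64.9 CPM in BoM. It differed from LM2 by -1.01 ± 0.17, adjusted p = 1.0e-04 in BrM3 and -1.59 ± 0.17, adjusted p = 7.1e-07 in BoM. VEGFA had 161, 219 and 229.6 CPM in LM2, 83.2, 82.3 and 82.7 CPM in BrM3 and 119, 122 and 116 CPM in BoM. Its differences from LM2 were -1.30 ± 0.12, adjusted p = 7.9e-08 in BrM3 and -0.78 ± 0.12, adjusted p = 2.5e-05 in BoM, and PDK1 differed by -0.66 ± 0.09 and -1.01 ± 0.10. In each of these genes the LM2 libraries were all above those of the other 2 lines.

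Hexokinases ran in opposite directions. HK2 was higher than in LM2 in both lines, by 1.62 ± 0.10, adjusted p = 8.3e-10, for BrM3, and 1.47 ± 0.10, adjusted p = 3.1e-09, for BoM. HK1, with 380.0, 439 and 441 CPM in LM2, 249, 262 and 224 CPM in BrM3 and 276, 257 and 240.2 CPM in BoM, differed from LM2 by -0.78 ± 0.12 in BrM3 and -0.70 ± 0.12 in BoM, lower in both. The HK2 share of both, per kilobase, was 14.5% ± 1.34 (SD, n = 3) in LM2, 47.2% ± 1.42 in BrM3 and 43.4% ± 1.81 in BoM. With shWDR5 it was 15.5% ± 1.19, 50.8% ± 2.29 and 48.0% ± 2.57. When the longest transcript set the length, the shCtrl shares were 9.41%, 35.4% and 32.0%, in the same order of lines. LM2 stood below the other lines by far more than the spread of its libraries, while BrM3 and BoM were closer to each other.

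Other genes parted BoM from BrM3, with 13 of 30 called, 6 higher and 7 lower in BoM, where 37.6% of all tested genes were called, 17.8% higher and 19.8% lower. By library, 10 were higher and 13 lower in every BoM library, against 27.2% and 27.3% of all tested genes. ENO1 was higher in BoM than in BrM3 by 0.77 ± 0.11 (adjusted p = 2.2e-05), and relative to LM2 it was at 0.33 ± 0.10 in BoM and -0.44 ± 0.10 in BrM3. ALDOC was higher in BoM than in BrM3 by 1.39 ± 0.28 (adjusted p = 8.2e-04). ADM was lower in BoM than in BrM3, at -0.73 ± 0.16, adjusted p = 0.0022, and so was NDRG1, at -0.58 ± 0.17, adjusted p = 0.013. PFKP, the platelet phosphofructokinase, had 279, 397 and 307 CPM in BrM3 and 211, 254 and 176 CPM in BoM, with -0.61 ± 0.22, adjusted p = 0.036 for BoM over BrM3. The call of PFKP was lost without BoM shCtrl replicate 1 or 3 or BrM3 shCtrl replicate 2 or 3, at an adjusted p of up to 0.17, and that of NDRG1 without BoM shCtrl replicate 3 (0.056). The difference of ENO1 between BoM and LM2 had an adjusted p of 0.054 without BoM shCtrl replicate 2 and 0.053 without LM2 shCtrl replicate 1. The LM2 values of PFKP, 188, 292 and 389 CPM, spread across both.

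The fibroblast marker sum given above was higher in LM2 shCtrl than in BrM3 or BoM shCtrl libraries as well. COL1A1 differed from LM2 by -2.93 ± 0.29 in BrM3 and -3.45 ± 0.30 in BoM, and PDGFRB by -1.04 ± 0.18 and 0.99 ± 0.17. The part of these genes in the line differences was not tested.

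Promoters of 9 of the 17 genes called in the averaged knockdown are printed, to set genes that fell beside genes that rose, with and without a HIF core motif. They were chosen after their values and motif matches were seen. CA9, ALDOC, PFKFB4, ENO2 and P4HA2 fell with shWDR5, and PGK1, GAPDH, ENO1 and PGAM1 rose. The windows are the 250 bases before a start site in RefSeq on GRCh38.p14, written 5′ to 3′ on the gene's strand. The CA9 window ends at the GENCODE 5′ end of its gene, and that of ALDOC spans this end. All other windows lie inside the GENCODE bounds of their genes, before a start further in. Which start sites these cells use was not tested. Capitals mark the HIF core motifs ACGTG and GCGTG on either strand, read as CACGT and CACGC on the opposite one. CACGTG holds ACGTG on both strands and counts as a pair of overlapping matches. The windows lie at chr9:35673678-35673927, plus strand for CA9, chr17:28576896-28577145, minus strand for ALDOC, chr3:48556804-48557053, minus strand for PFKFB4, chr12:6914330-6914579, plus strand for ENO2, and chr5:132227092-132227341, minus strand for P4HA2. Those of the other genes lie at chrX:78103998-78104247, plus strand for PGK1, chr12:6535014-6535263, plus strand for GAPDH, chr1:8878687-8878936, minus strand for ENO1, and chr10:97427568-97427817, plus strand for PGAM1.
CA9: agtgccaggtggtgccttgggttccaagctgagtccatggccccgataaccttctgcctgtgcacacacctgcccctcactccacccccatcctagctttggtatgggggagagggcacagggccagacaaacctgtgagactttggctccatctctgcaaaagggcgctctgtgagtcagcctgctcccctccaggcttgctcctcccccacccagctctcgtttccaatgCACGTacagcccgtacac
ALDOC: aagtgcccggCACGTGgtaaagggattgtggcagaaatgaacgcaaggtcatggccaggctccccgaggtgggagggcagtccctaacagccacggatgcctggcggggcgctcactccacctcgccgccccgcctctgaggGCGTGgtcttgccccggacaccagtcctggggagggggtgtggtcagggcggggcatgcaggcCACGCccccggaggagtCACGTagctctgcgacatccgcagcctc
PFKFB4: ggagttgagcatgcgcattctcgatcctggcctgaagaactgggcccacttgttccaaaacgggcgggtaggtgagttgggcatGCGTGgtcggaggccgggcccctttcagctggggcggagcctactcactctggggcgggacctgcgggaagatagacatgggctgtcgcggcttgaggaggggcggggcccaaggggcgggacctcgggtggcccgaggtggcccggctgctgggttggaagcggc
ENO2: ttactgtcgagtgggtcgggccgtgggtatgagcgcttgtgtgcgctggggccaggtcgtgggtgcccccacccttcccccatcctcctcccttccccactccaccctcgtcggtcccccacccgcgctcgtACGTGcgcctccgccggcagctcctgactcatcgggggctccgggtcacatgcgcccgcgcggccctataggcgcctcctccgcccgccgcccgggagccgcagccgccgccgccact
P4HA2: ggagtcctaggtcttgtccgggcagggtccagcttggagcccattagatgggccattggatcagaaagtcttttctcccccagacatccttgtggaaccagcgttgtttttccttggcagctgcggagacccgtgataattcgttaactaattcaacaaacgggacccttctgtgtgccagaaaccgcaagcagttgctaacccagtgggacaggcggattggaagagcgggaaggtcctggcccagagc
PGK1: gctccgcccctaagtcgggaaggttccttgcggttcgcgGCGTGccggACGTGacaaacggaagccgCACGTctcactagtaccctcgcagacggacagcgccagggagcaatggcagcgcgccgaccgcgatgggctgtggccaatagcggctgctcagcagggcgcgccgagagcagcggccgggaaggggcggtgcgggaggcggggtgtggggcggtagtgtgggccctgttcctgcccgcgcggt
GAPDH: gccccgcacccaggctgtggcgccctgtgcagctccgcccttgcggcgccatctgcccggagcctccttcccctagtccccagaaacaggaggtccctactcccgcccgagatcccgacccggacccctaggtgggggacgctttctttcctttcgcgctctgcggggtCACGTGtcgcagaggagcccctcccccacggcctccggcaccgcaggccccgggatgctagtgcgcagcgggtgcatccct
ENO1: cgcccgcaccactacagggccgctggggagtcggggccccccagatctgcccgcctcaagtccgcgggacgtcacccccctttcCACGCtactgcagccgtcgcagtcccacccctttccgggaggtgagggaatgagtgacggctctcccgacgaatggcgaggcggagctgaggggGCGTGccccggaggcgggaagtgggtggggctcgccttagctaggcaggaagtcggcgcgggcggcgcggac
PGAM1: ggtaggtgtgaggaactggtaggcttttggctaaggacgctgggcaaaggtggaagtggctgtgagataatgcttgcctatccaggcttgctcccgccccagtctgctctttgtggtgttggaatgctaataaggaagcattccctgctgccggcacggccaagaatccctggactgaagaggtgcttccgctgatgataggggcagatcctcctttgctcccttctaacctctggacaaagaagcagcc

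The window of ALDOC held 5 matches, PGK1 held 3, GAPDH and ENO1 held 2 each, CA9, PFKFB4 and ENO2 held 1 each, and P4HA2 and PGAM1 held 0. Windows of 300 bases, with 50 after the start, were found in RefSeq for 28 of the 31 genes, 51 windows in all. Either motif occurred in 34 of the 51 windows (66.7%), against 48.4% of 34796 windows of all genes. By gene, 25 of 28 (89.3%) had a window with a match, against 52.3% of 27058 genes. A gene counts here if any of its windows matches, which favours genes with more windows. The 28 genes had 51 windows, and the 27058 genes had 34796. Of the genes called in the averaged knockdown, 4 of the 6 that fell and 10 of the 11 that rose had a window with a match, and EGLN3, P4HA2 and PGAM1 had none. A match describes the letters and does not show binding, and no match says only that these letters are not in the window.

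Other genes of the pathways were followed as lists, of which the 2 genes with the smallest p per list, HIF1A, EPAS1, VHL and SLC2A1 are named by rule and the rest were chosen after their values were seen. Of 8 genes that regulate HIF, 7 were tested and EGLN1, another HIF prolyl hydroxylase, rose with shWDR5 (0.19 ± 0.06, adjusted p = 0.022) while none fell, where 15.6% of all tested genes rose and 19.9% fell. HIF1A was at 0.09 ± 0.06, adjusted p = 0.27, EPAS1 at 0.14 ± 0.06, adjusted p = 0.096 and VHL at 0.08 ± 0.06, adjusted p = 0.34. Among lines, 5 of the 7 were lower in BoM than in LM2 and 3 were lower in BrM3, with none higher, where 25.8% and 23.4% of all tested genes were lower. HIF1A had 568, 487 and 528 CPM in LM2, 300.04, 268 and 303 CPM in BrM3 and 340.4, 307 and 373 CPM in BoM shCtrl libraries, which put LM2 above the others. Its differences from LM2 were -0.86 ± 0.11, adjusted p = 4.5e-06 in BrM3 and -0.63 ± 0.11, adjusted p = 1.0e-04 in BoM, and those of EPAS1 were -1.07 ± 0.11, adjusted p = 5.0e-07 and -0.87 ± 0.11, adjusted p = 5.1e-06.

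Of 13 genes for glucose and lactate transport and the entry of pyruvate into mitochondria, 12 were tested, and 3 rose and 3 fell on average, against 15.6% higher and 19.9% lower over all tested genes. MPC1, a subunit of the mitochondrial pyruvate carrier (0.40 ± 0.09, adjusted p = 0.0016), PDP1, a phosphatase that activates pyruvate dehydrogenase (0.20 ± 0.06, adjusted p = 0.02), and PDHA1 (0.13 ± 0.05, adjusted p = 0.037) rose. Of the kinases that inactivate pyruvate dehydrogenase, PDK2 (-0.25 ± 0.08), PDK3 (-0.23 ± 0.08) and PDK4 (-0.52 ± 0.17) fell with adjusted p of 0.024, 0.025 and 0.028. PDK1, given above, was not called. The median over the 12 was 0.11, against 0.00 over all tested genes. SLC2A1, the main glucose transporter, was at 0.05 ± 0.08, adjusted p = 0.6. Relative to LM2, 5 of the 12 were lower and 1 higher in BoM, and 3 lower and 1 higher in BrM3, where 25.8% and 23.4% of all tested genes were lower and 25.9% and 24.2% higher. MPC1 was the higher gene in both, at 0.72 ± 0.15 in BoM and 1.32 ± 0.15 in BrM3.

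Of 16 other isozymes and branch enzymes, 9 were tested, and 2 rose and 3 fell on average, with a median of -0.09. Over all tested genes 15.6% were higher and 19.9% lower. The glycogen branching enzyme GBE1 rose (0.16 ± 0.05, adjusted p = 0.021). ENO3, the muscle enolase (-0.46 ± 0.09, adjusted p = 0.0012), PFKFB2 (-0.33 ± 0.08, adjusted p = 0.0027) and the gluconeogenic FBP1 (-0.31 ± 0.08, adjusted p = 0.0054) fell. Of 23 other hypoxia targets, 21 were tested, and 1 rose and 3 fell, with a median of -0.01, again against 15.6% higher and 19.9% lower over all tested genes. CA12, another surface carbonic anhydrase (-0.43 ± 0.07, adjusted p = 8.1e-05), BHLHE40, a transcriptional repressor (-0.42 ± 0.09, adjusted p = 0.001), and ANGPTL4 (-0.63 ± 0.19, adjusted p = 0.017) fell, and ADORA2B rose (0.17 ± 0.06, adjusted p = 0.04). In BoM 10 of the 21 were lower and 5 higher than in LM2, against 25.8% lower and 25.9% higher over all tested genes. In BrM3 8 were lower and 4 higher, against 23.4% and 24.2%. CA12 differed from LM2 by -2.90 ± 0.12 in BoM and -1.33 ± 0.11 in BrM3, and MXI1, a MYC antagonist, by 1.23 ± 0.14 and 1.65 ± 0.14.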

How the data were processed

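RNA of 18 libraries was sequenced as paired ends from a stranded TruSeq mRNA kit on HiSeq4000. The deposited values are raw counts per gene, which the authors made from reads aligned to hg38 with STAR 2.7.0, per the submitters' processing notes. The strand setting of the counting is not given in the sources used here. All 58815 genes entered, 0 columns of other samples were present, and 0 spike-in rows were found. Genes were kept where the highest normalized count exceeded 146, a threshold recomputed with the Jaccard criterion of HTSFilter, the filter that the study's methods name, which left 12081. Counts were tested with edgeR 4.0.16 (R 4.3.3) by quasi-likelihood in 1 fit of 6 groups with TMM scaling and Benjamini-Hochberg adjustment over all tested genes, called under 0.05. The SE is the absolute log2 fold change over the root of F. DESeq2 1.42.0, other scaling and filters, GC offsets, a replicate block, fits per comparison and leaving out each library were alternatives. The fits were checked on simulated data. Levels per length used GENCODE 44 exons.

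The members and lists were chosen with earlier results of these data known. All 31 genes are named, with every library's value for those called under knockdown and for the 5 called with the largest difference between lines. Total counts were 17485841 to 119667013 (median 37861544), and replicates differed by more than sampling noise (chi-square per gene 5.15 to 90.6). Libraries differed in their GC slope, from -0.264 to 0.235 log2 per 10% GC. In BoM it was -0.172 to 0.084 with shCtrl and -0.264 to -0.159 with shWDR5. In BrM3 it was -0.012 to 0.206 against -0.194 to 0.122, and in LM2 -0.140 to 0.235 against -0.002 to 0.230. LM2 shCtrl replicate 1 had the -0.140, with 0.180 and 0.235 in replicates 2 and 3. The labels give replicate numbers without saying that they mark a shared passage. Deviations of same-numbered libraries correlated at 0.566, 0.323 and 0.145 in BoM, over the limit of 0.1 for pairing, but not for every number in LM2 or BrM3. Blocked values stand beside BoM results where they change a call. P-values measure the spread between these libraries. The source labels of 12 of the 18 libraries name another organ than the titles and cell line labels, and groups follow the titles. Count columns of the controls are headed ad, which the labels do not explain. They were taken as shCtrl because it was the only other hairpin group of each line. The cell line label of the brain derivative is BrM2, where the paper has BrM3. The values of 1 gene of the other lists are not reported here.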

Additional observations from a re-analysis of the deposited data

How the results depend on the processing

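Of the 17 genes called in the averaged knockdown, 17 were called in each of 7 other fits and 16 in every one of the 18 fits that left out a library, CA9 being lost in 1 of them. No called value changed sign under any alternative. The counts in single lines moved more. In LM2 the count of 0 became 3 with DESeq2, 1 with RLE scaling, 2 with no filter, 3 with the replicate block, 6 with a GC offset, and 9 with block and GC offset. In BrM3 the count of 8 became 13 with DESeq2 and 19 with block and GC offset. In BoM the count of 10 became 18 with block and GC offset and 4 when fitted alone. The difference of response between BoM and LM2 gave 1 call with DESeq2 and 1 with block and GC offset, and that between BrM3 and LM2 gave 1 with DESeq2, against 0. Over all tested genes the same fits gave 40, 88 and 18 calls. The cause of these shifts was not tested.

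Leaving out a library gave 0 to 3 calls in LM2, 2 to 12 in BrM3, 4 to 12 in BoM and 16 to 19 on average. It gave 21 to 25 for BoM against LM2, 16 to 22 for BrM3 against LM2, 9 to 15 for BoM against BrM3, and 0 to 1, 0 to 0 and 0 to 0 for the differences of response. The LM2 count was 3 without BrM3 shWDR5 replicate 1. Between lines, 46 of 55 calls were kept in every fit without a library. Over all tested genes, leaving out a library gave 384 to 990 calls in LM2, 730 to 1559 in BrM3 and 1169 to 2321 in BoM. On average it gave 3741 to 4631. For BoM against LM2, BrM3 against LM2 and BoM against BrM3 it gave 5359 to 6602, 4830 to 6074 and 3340 to 4935. The differences of response gave 0 to 8, 0 to 2 and 0 to 1, in the same order.

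Same-numbered libraries correlated at 0.576, 0.025 and 0.729 in LM2 and at 0.546, 0.515 and -0.178 in BrM3, for replicates 1, 2 and 3. Replicate 2 of LM2 and replicate 3 of BrM3 thus missed the limit for pairing, while the other values there were well over it. In BoM the 0.145 of replicate 3 lay below the 0.211 between shCtrl replicate 2 and shWDR5 replicate 3. These correlations do not show whether same-numbered libraries shared a passage in any line, and this was not tested. With the block, HK2, GAPDH and NDRG1 were called in LM2. In BoM, ENO2, ADM and CA9 gained a call under the block (adjusted p = 0.032, 0.017 and 0.045). Over all genes, the calls in LM2, BrM3, BoM and on average were 756, 1298, 1946 and 4280, and became 1434, 2277, 3172 and 5668 with the block and 1965, 2936, 3401 and 6189 with the GC offset. They were 3446, 4469, 4812 and 7277 with both, and 290, 1564 and 901 for single lines fitted alone. With DESeq2 they were 1142, 1768, 2461 and 4764. In LM2 they were 734 with RLE scaling and 963 of 41236 genes with no filter. Levels per kilobase moved beyond their SD in 86 of 93 cases when the longest transcript set the length. Depth limited CA9 in BrM3 and BoM, where the highest count in a library was 10, and ANKRD37.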

Other observations

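ANKRD37, which lay under the filter, was testable with a looser one (filterByExpr, 18428 genes). Its averaged log2 fold change for shWDR5 was then 0.30 ± 0.16, adjusted p = 0.17 by edgeR, and it was not called.

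The subunits of phosphofructokinase differed in their mix. PFKP made up 54.8% ± 4.84 (SD, n = 3) of the 3 subunit genes per kilobase in LM2 shCtrl, 65.7% ± 2.22 in BrM3 and 60.1% ± 2.76 in BoM. PFKM made up 28.3% ± 8.27, 23.6% ± 2.99 and 28.7% ± 4.13, and PFKL 16.9% ± 3.66, 10.7% ± 0.869 and 11.2% ± 1.53. The LM2 libraries ranged widely for PFKP, with 50.1%, 54.6% and 59.8%.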
